A study of Mus musculus with 43 samples.

Results

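The genes described here are 7 genes grouped under the entry of male germ cells into meiosis and the steps that follow: Stra8, Meioc, Ythdc2, Dazl, Taf4b, M1ap and Prss50. They were matched by gene symbol among the 55401 gene identifiers of the RNA tables, and all 7 passed the filter on low counts in both RNA assays. Prss50 and M1ap were selected on their lower values in the Prmt1-dKO libraries of sorted cells, so every sorted-cell value of a gene given below is a description with no test. The whole-testis libraries and the peak lists were not used in that choice. In mm10, Stra8 (ENSMUSG00000029848.11) lies at chr6:34920163-34939344, M1ap (ENSMUSG00000030041.9) at chr6:82946902-83030309, Meioc (ENSMUSG00000051455.13) at chr11:102663716-102682237 and Prss50 (ENSMUSG00000048752.7) at chr9:110857967-110864629, all on the plus strand. Dazl (ENSMUSG00000010592.9) lies on the minus strand at chr17:50279395-50293636, and Ythdc2 (ENSMUSG00000034653.11) and Taf4b (ENSMUSG00000054321.7) lie on the plus strand at chr18:44827746-44889724 and chr18:14783245-14900359.

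RNA was measured in mice on a C57BL/6J background at P7, with 3 WT and 3 Prmt1-dKO libraries of total testis RNA and 2 WT and 2 Prmt1-dKO Smart-seq2 libraries of sorted spermatogonia. The Prmt1-dKO mice carried Prmt1 lox/lox alleles with the germ-cell driver Ddx4-CreERT2 and had received tamoxifen, and the labels describe tamoxifen treatment for WT and knockout samples alike. The labels call the sorted controls WT, whereas the methods of the study describe them as Prmt1 +/lox animals with the same Cre, sorted on its GFP. Histone marks were profiled by CUT&Tag in testis cell suspensions of C57BL/6J mice, with 33 peak lists for the 5 arginine marks H3R2me2a, H3R8me2a, H4R3me1, H4R3me2a and H4R3me2s and for H3K4me3 and H3K27ac in WT at P7 and P14 and for H4R3me2s in Prmt1-dKO at P7. P7 and P14 are postnatal days. The cell-type label of the whole-testis RNA libraries is spermatogonia, but their protocol starts from testis, and Sertoli and Leydig cell markers were abundant in them. The methods of the study call replicates biological, but neither they nor the labels say which libraries came from separate animals, so the spread between libraries may be partly technical.

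Entry into meiosis in the testis is driven by retinoic acid, which induces Stra8, a chromatin-associated factor of the premeiotic S phase. MEIOC and the RNA helicase YTHDC2 form a cytoplasmic complex that clears mitotic transcripts. DAZL is an RNA-binding protein that makes germ cells competent to respond to retinoic acid, and TAF4B is a germ-cell subunit of the general transcription factor TFIID. M1AP (meiosis 1 associated protein) is needed later, for meiotic progression and fertility in males, and PRSS50 is a testis serine protease.

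The RNA libraries held between 12396345 and 18547103 counts, of which the members took between 0.0539% and 0.0677% in whole testis, 0.251% and 0.255% in sorted WT cells and 0.116% and 0.117% in sorted Prmt1-dKO cells. Prmt1 itself, whose count also covers exons outside the deleted part, was lower in whole testis (log2 fold change -0.49 ± 0.13 SE, edgeR quasi-likelihood FDR = 0.0334), and its CPM (counts scaled to library size) was 216 and 149 in sorted WT cells and 112 and 86.5 in sorted Prmt1-dKO cells. The pair of sorted WT libraries stood apart from each other, with r = 0.788 across genes for log2 CPM against 0.953 for the Prmt1-dKO pair and 0.940 to 0.991 among whole-testis libraries. Germ-cell markers were present in every library. Of the macrophage markers, all 5 were listed at 0 in both sorted WT libraries, and their summed level was 30.6 and 33.2 TPM (a level scaled for transcript length and library size) in the Prmt1-dKO pair, with Adgre1 at 0. The summed level of 6 markers of undifferentiated spermatogonia was 71.0 and 106 TPM in sorted WT cells and 191 and 218 TPM in sorted Prmt1-dKO cells. That of 5 markers of differentiating spermatogonia was also higher, at 372 and 439 TPM in WT and 443 and 446 TPM in Prmt1-dKO. The 6 germ-cell markers summed to between 661 and 778 TPM in WT and to 674 and 687 TPM in Prmt1-dKO. The part of these marker differences in the values below was not tested.

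The order of the members by level differed between whole testis and sorted cells. In WT whole testis Dazl was highest at 244 ± 35.5 TPM (SD, n = 3), followed by Stra8 at 122 ± 23.7, M1ap at 35.5 ± 4.08, Taf4b at 16.8 ± 1.77, Prss50 at 13.4 ± 1.78, Meioc at 9.36 ± 1.71 and Ythdc2 at 8.17 ± 1.37. The libraries of neighbours in this order did not overlap except for Meioc and Ythdc2. In WT sorted cells Prss50 came first at 569 ± 21.1 TPM (SD, n = 2), before M1ap at 491 ± 5.85, Dazl at 345 ± 31.9, Meioc at 127 ± 20.3, Stra8 at 97.1 ± 48.4, Ythdc2 at 60.1 ± 2.28 and Taf4b at 59.2 ± 2.91. Here Meioc overlapped Stra8 and Ythdc2 overlapped Taf4b.

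Prss50, a low transcript of whole testis, was thus the most abundant member in WT sorted cells, 42.4 times its mean whole-testis TPM. M1ap was 13.8 times, Meioc 13.6 times, Ythdc2 7.35 times and Taf4b 3.51 times higher in sorted than in whole-testis WT libraries, whereas Dazl stood at 1.41 and Stra8 at 0.796 times. TPM depends on the effective length, which for Meioc was 1866 and 1596 bp in sorted WT and 3655 to 4060 bp in whole-testis WT. Mean CPM in sorted and whole-testis WT was 178 and 23.7 for Meioc and 639 and 31.2 for M1ap. Sorting and library chemistry differ together between these assays and cannot be told apart, so no test was made. In sorted Prmt1-dKO cells Dazl came first at 392 ± 34.8 TPM (SD, n = 2), and Prss50 and M1ap, at 136 ± 4.15 and 135 ± 3.44, overlapped each other. They were followed by Stra8 at 82.1, Meioc at 38.7, Taf4b at 28.3 and Ythdc2 at 16.8 TPM. In Prmt1-dKO whole testis the order began with Dazl at 223, Stra8 at 111 and M1ap at 39.8 TPM, which did not overlap their neighbours. Prss50, Taf4b, Ythdc2 and Meioc followed at 25.4, 16.0, 7.86 and 7.80 TPM, each overlapping the next. The plot of TPM by library shows these levels.

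**Figure D1:**
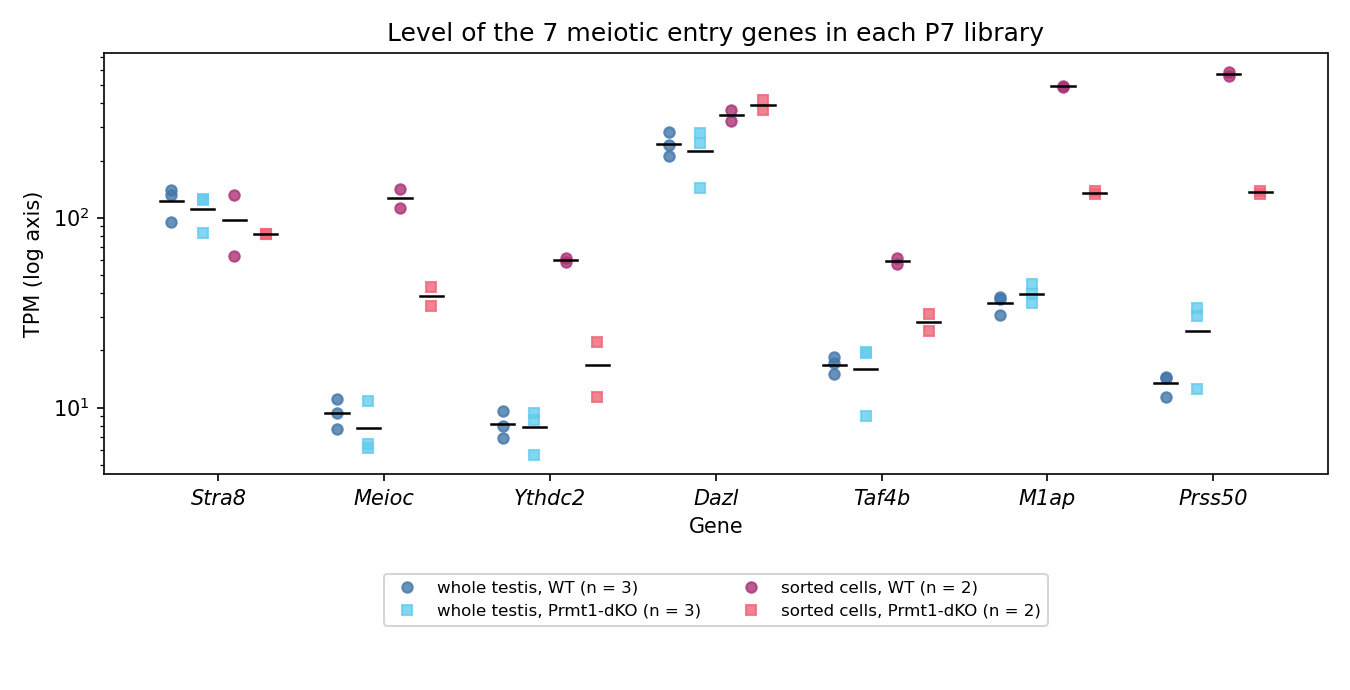
Level of each member in TPM (log axis) in the 10 P7 RNA libraries, with a point per library, a black bar for the group mean, circles for WT and squares for Prmt1-dKO. Meioc, Ythdc2, Taf4b, M1ap and Prss50 are lower in sorted Prmt1-dKO than in sorted WT cells without overlap, while their whole-testis libraries lie below all sorted WT libraries.

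Whole-testis RNA gives the genotype difference of the members in libraries that were not used to select Prss50 and M1ap. Germ cells are only a part of this tissue, so a member not called may still have changed in them. None of the 7 was called higher or lower in Prmt1-dKO by edgeR's quasi-likelihood test (FDR below 0.05 and at least 2-fold), against 5.32% of the 16554 genes tested called higher and 1.78% called lower. With no adjustment, 2 members, M1ap and Prss50, had a p below 0.05, and DESeq2 called 1, Prss50. In such bulk samples fewer cells of a type and less RNA per cell cannot be told apart.

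Prss50 had the largest whole-testis difference of the members. Its CPM was 8.70, 10.8 and 11.7 in WT libraries 1 to 3 and 24.1, 32.3 and 10.7 in Prmt1-dKO libraries 1 to 3. Prmt1-dKO libraries 1 and 2 lay above every WT library and library 3 among them, so the groups overlapped. The log2 fold change was 1.10 ± 0.34 (SE), with an edgeR FDR of 0.0528. The call turned on the processing: without Prmt1-dKO replicate 3 the log2 fold change was 1.43 with an edgeR FDR of 0.00582, without a filter on low counts it was 1.07 with an edgeR FDR of 0.00113, and DESeq2 gave 1.08 with an adjusted p of 0.0096.

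M1ap had CPM values of 26.9, 33.2 and 33.6 in WT and 35.4, 51.8 and 37.0 in Prmt1-dKO whole testis. All 3 Prmt1-dKO libraries were above the WT libraries, a separation that 20.9% of all genes tested showed in this direction and 19.9% in the other. The log2 fold change of 0.40 ± 0.17 (SE) was not called, with an edgeR FDR of 0.125. M1ap was the single member whose whole-testis groups did not overlap in CPM. In TPM they overlapped, at 30.79, 38.16 and 37.51 in WT and 39.46, 44.49 and 35.54 in Prmt1-dKO. Other annotated genes overlap M1ap, among them Gm43985 on the opposite strand, and whether strand was used in counting is not given in the sources used here.

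Stra8 had CPM values of 67.4, 91.6 and 87.5 in WT and 85.4, 107 and 61.1 in Prmt1-dKO, with a log2 fold change of 0.04 ± 0.20 (SE) and an edgeR FDR of 0.913. The Prmt1-dKO libraries held both the highest and the lowest Stra8 value. Dazl, at 354, 414 and 334 CPM in WT and 365, 268 and 449 CPM in Prmt1-dKO, showed the same overlap (log2 fold change -0.03 ± 0.18 SE, edgeR FDR = 0.930). Taf4b, the TFIID subunit, was at 53.5, 56.9 and 48.9 CPM in WT and at 63.6, 35.4 and 67.1 CPM in Prmt1-dKO (log2 fold change 0.06 ± 0.21 SE, edgeR FDR = 0.866). For these genes the genotype difference was smaller than the spread between libraries. Without Prmt1-dKO replicate 2 the log2 fold change of Taf4b was 0.30 with an edgeR FDR of 0.0245, under 2-fold and not called.

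The partners Meioc and Ythdc2 were both low in whole testis. Meioc had 21.9, 28.2 and 20.9 CPM in WT and 27.4, 20.5 and 19.7 CPM in Prmt1-dKO, a log2 fold change of -0.07 ± 0.17 (SE) with an edgeR FDR of 0.805. Ythdc2 had 28.1, 33.6 and 25.5 CPM in WT and 28.7, 17.3 and 30.6 CPM in Prmt1-dKO, a log2 fold change of -0.18 ± 0.21 (SE) with an edgeR FDR of 0.579. Both overlapped between genotypes. Among the Prmt1-dKO libraries, replicate 2 was lowest for Dazl, Ythdc2 and Taf4b and highest for Stra8, M1ap and Prss50. Markers of other cell types also differed between genotypes in the same libraries. The summed level of 5 Leydig-cell markers was 618 to 719 TPM in WT and 156 to 178 TPM in Prmt1-dKO, that of 6 Sertoli-cell markers 1588 to 1725 against 839 to 1017 TPM, and that of 4 peritubular myoid markers 806 to 873 against 278 to 492 TPM. That of 5 macrophage markers was 80.5 to 91.1 in WT and 99.7 to 116 TPM in Prmt1-dKO, and that of 4 endothelial markers 63.8 to 74.8 against 52.2 to 77.8 TPM. The 6 germ-cell markers summed to 452 to 509 TPM in WT and 399 to 501 TPM in Prmt1-dKO, and the 5 markers of differentiating spermatogonia to 323 to 363 against 214 to 270 TPM. The 6 markers of undifferentiated spermatogonia summed to 127 to 155 TPM in WT and 108 to 174 TPM in Prmt1-dKO. Their part in the values of the members was not tested.

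In sorted spermatogonia the members split into 3 patterns. Meioc, Ythdc2, Taf4b, M1ap and Prss50 lay lower in both Prmt1-dKO libraries than in both WT libraries, Dazl lay higher in both, and Stra8 overlapped. These patterns are in CPM, and in TPM Dazl overlapped too, at 322.83 and 367.93 in WT and 367.53 and 416.77 in Prmt1-dKO. Over all 16443 genes tested, 20.3% lay below without overlap and 36.3% above, and the log2 fold change was below 0 for 44.1% of genes, with a median of 0.15. Over these genes edgeR called 0 higher and 0 lower, whereas DESeq2 called 1234 higher and 662 lower of 24498. The biological coefficient of variation in edgeR, a measure of the spread between replicates, was 0.767 here and 0.155 in whole testis. The log2 fold change was below 0 for 6 of the 7 members, and that of Stra8 was within rounding of 0.

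Prss50 had 551 and 583 CPM in sorted WT and 169.5 and 146 CPM in sorted Prmt1-dKO cells, and M1ap 628 and 649.9 against 213 and 179.9 CPM. Both genes were chosen by these values. The mean CPM in WT was 3.59 times that in Prmt1-dKO for Prss50 (log2 fold change -1.85 ± 0.16 SE) and 3.25 times for M1ap (-1.70 ± 0.16 SE). Leaving out any 1 library kept Prss50 between -1.93 and -1.77 and M1ap between -1.80 and -1.61 on that scale. These ranges and SEs come from the values that chose both genes, so they lend the difference no support.

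Ythdc2, the helicase, had 261 and 224 CPM in sorted WT and 73.1 and 55.2 CPM in sorted Prmt1-dKO cells, a ratio of 3.78 (log2 fold change -1.92 ± 0.22 SE). Prss50, M1ap and Ythdc2 lay close together, and their order changed with the scale: in log2(TPM + 1) the differences were -2.06, -1.85 and -1.85. Its partner Meioc had 214 and 143 CPM against 84.6 and 91.6 CPM, a ratio of 2.03 (-1.02 ± 0.25 SE). The Meioc value depends on the scale: in log2(TPM + 1) the difference was -1.69. The effective length that the deposited tables give for Meioc, which weights its isoforms, was 1866 and 1596 bp in sorted WT, 2469 and 2428 bp in sorted Prmt1-dKO and 3655 to 4329 bp in whole testis. Meioc has annotated coding transcripts of 4573 and 1726 bp, the start of the shorter lying at -1872 bp from that of the longer. Without WT replicate 1 the log2 fold change of Meioc was -0.68. Taf4b had 226 and 240.1 CPM in WT and 123 and 136 CPM in Prmt1-dKO (log2 fold change -0.85 ± 0.15 SE).

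Stra8 and Dazl stood outside this pattern. Stra8 had 103 and 64.2 CPM in sorted WT and 86.4 and 80.4 CPM in sorted Prmt1-dKO cells, so that the WT pair bracketed the Prmt1-dKO pair and leaving out 1 WT library moved the log2 fold change to 0.40 or -0.28. Dazl had 426 and 468 CPM in WT and 517 and 523 CPM in Prmt1-dKO (log2 fold change 0.22 ± 0.14 SE), close to the median of all genes. Whether the sorted-cell and whole-testis differences of a member differ from each other was not tested. The plot of log2 fold changes sets both assays side by side.

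**Figure D2:**
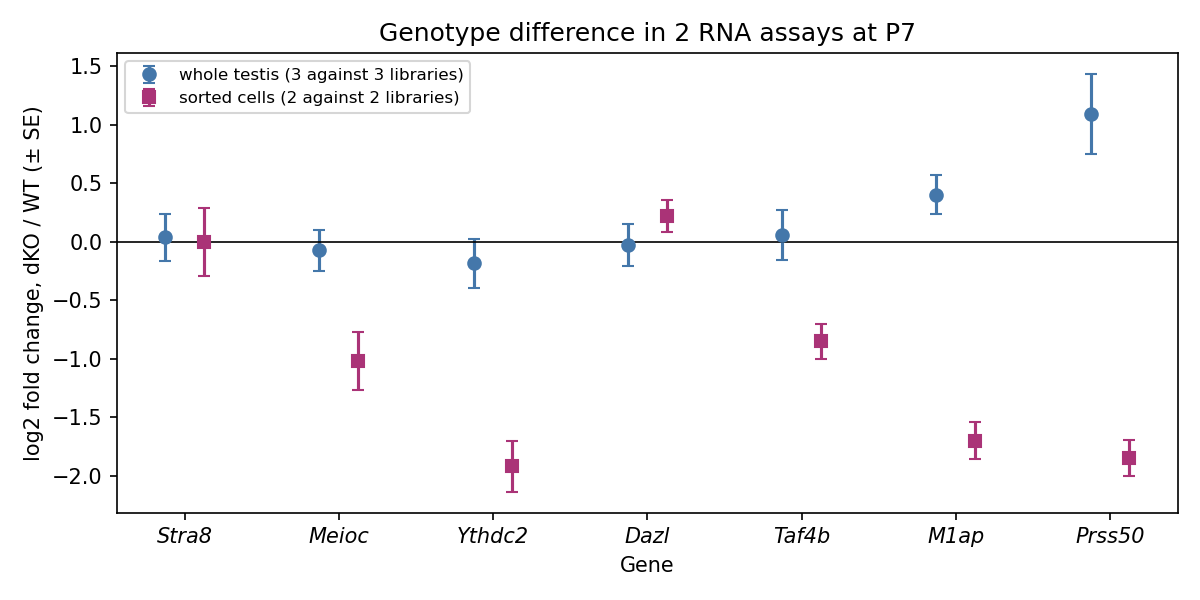
Log2 fold change of Prmt1-dKO against WT (edgeR, ± SE) for each member, with circles for whole testis (3 against 3 libraries) and squares for sorted cells (2 against 2 libraries). Prss50 and M1ap, selected on the sorted-cell contrast, are at -1.85 and -1.70 there and at 1.10 and 0.40 in whole testis, while Stra8 is near 0 in both.

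A list of 24 further regulators of meiotic entry (retinoic acid synthesis, transport and receptors, the E2F6 and PCGF6 repressors, Meiosin, Rbm46, Kit and others) was all tested in whole testis. The test called 2 lower and 0 higher, beside 1.78% and 5.32% of all genes, and the list's median log2 fold change was -0.19 beside 0.02 over all genes. Those lower were Stra6, the cellular retinol uptake receptor (log2 fold change -1.93 ± 0.12 SE, edgeR FDR = 8.63e-05), and Cyp26b1, the enzyme that degrades retinoic acid (-1.26 ± 0.17 SE, edgeR FDR = 0.00257). Stra6 was at 109 to 111 CPM in WT and 25.4 to 31.8 CPM in Prmt1-dKO, and Cyp26b1 at 265 to 269 against 79.7 to 128 CPM, without overlap. The Leydig, Sertoli and peritubular marker sums were lower in the same libraries, and their part in these calls was not tested. With an edgeR FDR below 0.05 but under 2-fold were Ccna2 (a cyclin, log2 fold change -0.70), Rdh10 (a retinol dehydrogenase, -0.44) and Pcgf6 (a Polycomb subunit, 0.42), named after their values were seen. At that FDR with no fold threshold, 1749 of the 16554 genes tested were higher and 1409 lower. In sorted cells the median of this list was 0.19, with 16 genes above 0 and 8 below, beside 44.1% of all genes below 0.

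The meiotic axis list (cohesins, synaptonemal complex and recombination genes) holds 18 genes, of which 17 were tested in each assay. In whole testis 1 was called higher, Spo11, which makes the double-strand breaks of meiotic recombination (log2 fold change 1.43 ± 0.43 SE, edgeR FDR = 0.0455), and 0 lower, beside 5.32% and 1.78% of all genes. Sycp3 and Dmc1, with log2 fold changes of 0.56 and 0.62, had an edgeR FDR below 0.05 without reaching 2-fold and are named after their values were seen. Over all 16554 genes, 1749 higher and 1409 lower had such an FDR with no fold threshold. The list's median was 0.22 beside 0.02 over all genes. Spo11 was at 0.490 to 1.26 CPM in WT and 2.04 to 3.74 CPM in Prmt1-dKO. In sorted cells all 17 axis genes tested had a log2 fold change below 0, with a median of -0.86 beside 0.15 over all genes, and 13 lay below WT in both Prmt1-dKO libraries. Over all genes 44.1% were below 0 and 20.3% lay below without overlap. The list was chosen with earlier results of these data known.

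The genes whose profile over the 10 libraries was most like that of Stra8 were Med11 (a Mediator subunit), Mrrf (a mitochondrial ribosome recycling factor) and Traf2 (a signalling adaptor), with root mean square differences of 0.11, 0.14 and 0.14 in log2 CPM centred within each assay, among 14171 genes. Each had overlapping genotypes in both assays in CPM, whereas in TPM the sorted-cell groups of Mrrf did not overlap. Among the members the closest pair was Meioc and Taf4b at 0.28, and M1ap and Prss50 were 0.38 apart, whereas Stra8 was no closer than 0.40 to another member. The distance between M1ap and Prss50 is partly fixed by their choice, since both were selected on the sorted libraries that enter it.

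Peaks near the transcript starts were examined next. A mark was counted at a gene if a peak summit lay within 3000 bp of any of its annotated starts in 2 or more replicate lists. H4R3me2a at both ages and H4R3me2s at P14 had 3 lists and the other groups 2, so the rule was easier to pass with 3 lists. These counts are descriptions with no test. The promoter mark H3K4me3 was present at all 7 members at P7 and at P14, in every list, against 60.7% and 63.1% of the 21951 protein-coding genes. Among coding genes at 1 TPM or more in sorted WT cells these shares were 91.4% and 93.5%. All 28 H3K4me3 peaks at members had a q of at most 0.01.

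The H3K4me3 summits lay just past the annotated start for most members. For Dazl the 4 summits were 139 to 156 bp into the gene, for M1ap 117 to 556 bp, for Meioc 120 to 297 bp, for Taf4b 111 to 502 bp and for Prss50 between 33 bp upstream and 148 bp downstream. Stra8 and Ythdc2 differed. The Stra8 summits lay 1094 to 1504 bp past the start of its longest transcript, which is 247 to 657 bp past the nearest of the 3 further starts annotated 797 to 847 bp downstream. The Ythdc2 summits lay 1011 to 1084 bp past its start, and with a 1000 bp window Ythdc2 was not counted. By fold enrichment over the local background, the H3K4me3 peaks of Prss50 ran from 4.58 to 5.51 at P7 and from 5.46 to 5.96 at P14, and those of Stra8 from 5.20 to 6.09 and from 5.90 to 6.86. Those of Dazl ran from 6.33 to 6.85 and from 7.09 to 7.61, and those of M1ap from 6.69 to 7.97 and from 7.10 to 7.91. Those of Meioc ran from 6.28 to 6.36 and from 7.92 to 7.93, and those of Taf4b from 7.51 to 7.71 and from 7.25 to 8.23. Ythdc2, from 7.63 to 7.98 at P7, overlapped Taf4b and M1ap, and at P14, from 9.10 to 10.6, it lay above the other members. Prss50, among the most abundant transcripts of the members in sorted WT cells, thus had H3K4me3 fold enrichments at the lower end of the members at P7, overlapping those of Stra8.

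**Figure D3:**
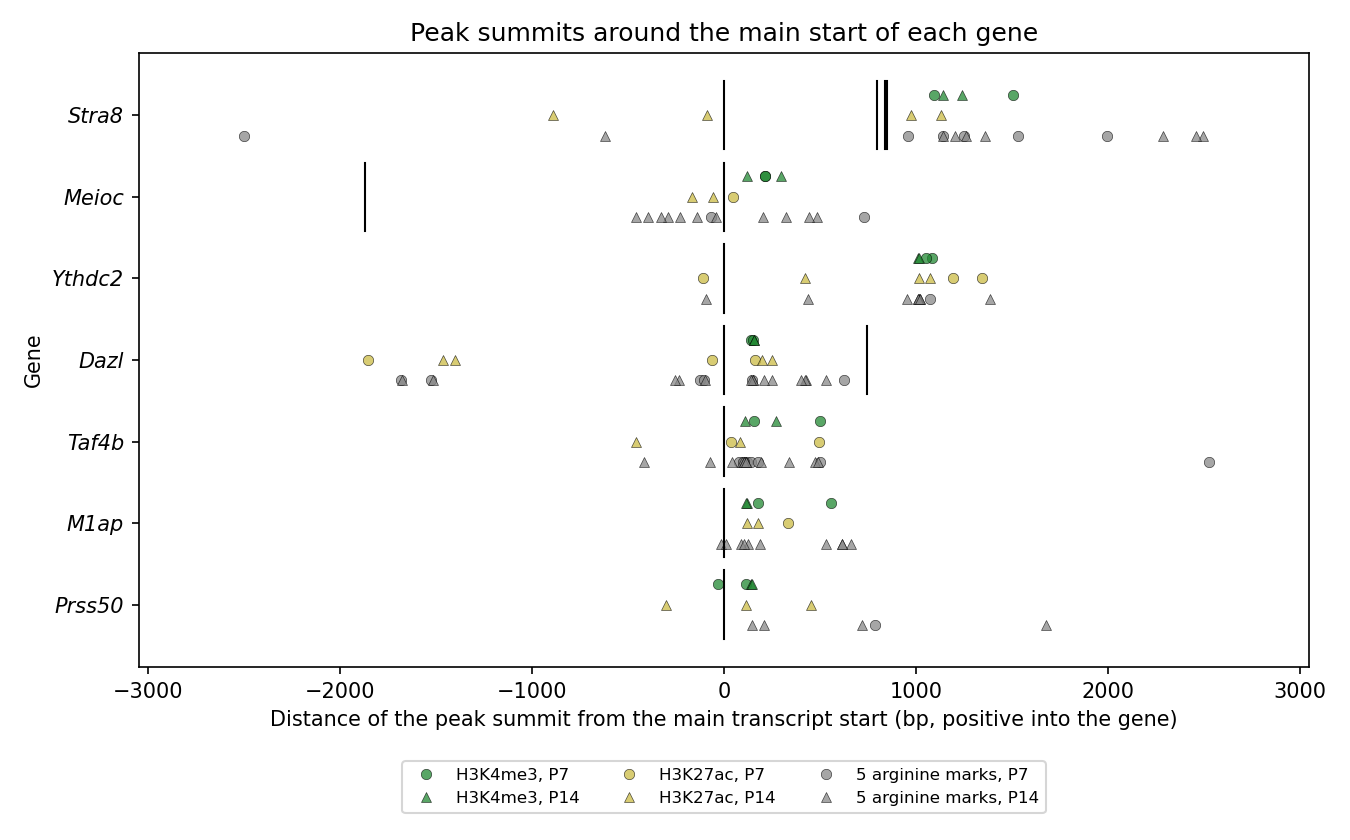
Distance in bp of each peak summit from the start of the longest coding transcript of each member, positive into the gene, for H3K4me3, H3K27ac and the 5 arginine marks at P7 (circles) and P14 (triangles), Prmt1-dKO H4R3me2s included. Vertical lines mark annotated starts of coding transcripts; the H3K4me3 summits of Stra8 lie past its downstream starts and those of Ythdc2 1011 to 1084 bp inside the gene, while summits of the other marks also lie elsewhere.

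The sequences of these promoters are shown because H3K4me3 was found near the starts they precede. Most of the summits lie past the start, outside the bases shown, and no H3K4me3 peak of Stra8 reached the first of its stretches. They are bases upstream of the RefSeq start on GRCm38.p6, and for all but Stra8 bases in an annotated exon of the gene were left out. Capitals mark matches, on either strand, to motifs fixed for the search. These were the E-box CACGTG, the retinoic acid receptor half-site AGGTCA, the E2F motif GCGGGAA, the TATA box TATAAA and the CCAAT box, which reads ATTGG when it lies on the other strand. None of the matches overlap. Among 32851 RefSeq promoters of the same upstream length, 250 bases, these motifs occur, in that order, in 6.02%, 14%, 3.82%, 12.4% and 33.8%. The RefSeq start of Stra8 lies 785 bp past the start of its longest GENCODE transcript, and all 250 bases upstream of it are in an exon of that transcript, so only 30 bases around each AGGTCA are shown, from chr6:34920742-34920771 and chr6:34920898-34920927. The others are Meioc from chr11:102665335-102665584, Dazl from chr17:50293637-50293870 (minus strand), M1ap from chr6:82946672-82946901 and Prss50 from chr9:110857714-110857963.
Stra8, 206 to 177 bases before the start: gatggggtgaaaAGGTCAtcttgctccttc
Stra8, 50 to 21 bases before the start: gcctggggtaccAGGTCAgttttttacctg
Meioc: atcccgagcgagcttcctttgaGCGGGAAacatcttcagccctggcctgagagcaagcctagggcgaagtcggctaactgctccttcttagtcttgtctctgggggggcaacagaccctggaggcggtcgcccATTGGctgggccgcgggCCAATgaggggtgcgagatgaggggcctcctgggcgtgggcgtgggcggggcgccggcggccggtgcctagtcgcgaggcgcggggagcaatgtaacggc
Dazl: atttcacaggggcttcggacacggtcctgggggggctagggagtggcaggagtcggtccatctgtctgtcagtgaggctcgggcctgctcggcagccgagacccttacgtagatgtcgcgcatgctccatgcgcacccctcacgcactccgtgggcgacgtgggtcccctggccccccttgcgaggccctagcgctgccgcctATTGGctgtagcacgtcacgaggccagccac
M1ap: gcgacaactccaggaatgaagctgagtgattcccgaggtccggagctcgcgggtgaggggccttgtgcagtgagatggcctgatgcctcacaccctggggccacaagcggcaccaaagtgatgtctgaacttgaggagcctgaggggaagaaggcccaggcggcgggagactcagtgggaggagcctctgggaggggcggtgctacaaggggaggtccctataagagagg
Prss50: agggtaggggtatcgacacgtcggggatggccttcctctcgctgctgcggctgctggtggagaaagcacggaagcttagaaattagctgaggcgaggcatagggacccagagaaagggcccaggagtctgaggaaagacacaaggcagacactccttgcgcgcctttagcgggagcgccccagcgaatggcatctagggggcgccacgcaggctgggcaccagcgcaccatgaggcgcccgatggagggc

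Within the 250 bases, Stra8 held 2 AGGTCA matches, 194 to 189 and 38 to 33 bases before the RefSeq start, and 4 CCAAT matches. Meioc held 1 GCGGGAA match and 2 CCAAT matches, and Dazl held 1 CCAAT match 47 to 43 bases before its start. The windows of M1ap and Prss50 held none of the 5 motifs, which says only that these letters are not in this stretch. The number of CpG dinucleotides was 22 in Meioc, 20 in Dazl, 17 in Prss50, 9 in M1ap and 5 in Stra8, beside a median of 6 over all promoters. Only Stra8 was below that median, so that 49.6% of promoters had as few CpGs as Stra8 or fewer, against 86.7% for Meioc.

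H3K27ac, a mark of active promoters and enhancers, was found at 3 members at P7 (Ythdc2, Dazl and Taf4b), against 31% of coding genes, and at all 7 at P14, against 48.9%. Among coding genes at 1 TPM or more in sorted WT cells, as all members are, these shares were 52.7% and 80.4%. At P7 neither list held an H3K27ac peak at Stra8 or Prss50, and 1 of 2 lists held one at Meioc and at M1ap. Of the 10 P7 peaks at members 3 had a q of at most 0.01, namely 2 at Dazl and 1 at Taf4b, and of the 21 at P14 it was 18. The fold enrichment at the M1ap start was 3.37 in the single P7 list and 5.50 and 5.75 at P14, and at Meioc 3.00 in the single P7 list and 6.25 and 5.99 at P14. The number of peaks at a q of at most 0.01 also differed by age in these libraries, 4515 and 6207 at P7 and 17273 and 20801 at P14 for H3K27ac over the genome, and its part in the counts was not tested. The ages differ in cell content too, since the cell-type labels give spermatogonia for P7 and spermatocytes for P14, although the P14 titles name spermatogonia.

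Of the arginine marks at P7, H4R3me2a, the mark that Prmt1 lays down, was found at Stra8, Dazl and Taf4b in 2 of 3 lists each, against 15.3% of coding genes. H4R3me1 marked Taf4b alone, against 10.8%. H3R2me2a and H3R8me2a marked none of the members by this rule, against 11% and 9.71%, and held a peak in 1 of 2 lists at 3 members each. Among the expressed coding genes the P7 shares were 22.8% for H4R3me2a, 16.3% for H4R3me1 and 15.4% each for H3R2me2a and H3R8me2a. Of the 23 arginine-mark peaks at members in WT at P7, 1 had a q of at most 0.01, that of H4R3me1 at Taf4b (fold enrichment 4.43). All the others had a larger q. The Stra8 summits of H4R3me2a at P7 lay far apart, at 959 bp from the main start in one list and at -2499 bp in the other, while the Taf4b summits lay 79 and 120 bp past its start. Dazl had summits on both sides of its start, at 623 and -1681 bp in one list and at -123 bp in the other.

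At P14 the arginine marks covered more members. H4R3me2a was found at 6 members, all but Prss50, against 49% of coding genes. H3R2me2a was found at all 7, against 51.3%, H3R8me2a at 4 (Stra8, Meioc, Dazl and Taf4b), against 33%, and H4R3me1 at 2 (Taf4b and M1ap), against 29.9%. H4R3me2s was found at Meioc, Ythdc2 and Taf4b in 2 of 3 lists each, against 34.2%. Among the expressed coding genes the P14 shares were 71.5% for H3R2me2a, 69.9% for H4R3me2a, 54% for H4R3me2s, 52.5% for H3R8me2a and 46.5% for H4R3me1. The peak names of the P14 H4R3me2s lists carry the number 17 where the labels give 14 days. Of 72 arginine-mark peaks at members at P14, 29 had a q of at most 0.01. Among these were Dazl with H3R8me2a at a fold enrichment of 5.84 and Taf4b with H4R3me2s at 6.25 and 5.05 and with H3R2me2a at 4.98.

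Counted over both ages together, Taf4b held arginine-mark peaks most often, in 7 of 11 WT lists at P7 and 11 of 12 at P14. Prss50 held them least often over both ages, in 2 of 11 and 3 of 12, but not at P7 alone. Stra8 held them in 4 and 8 lists, Dazl in 4 and 9, M1ap in 2 and 7, and Meioc and Ythdc2 in 1 and 8 each. The WT arginine-mark lists held 15361 to 36145 peaks at P7 and 18423 to 55908 at P14, and the part of list length in these counts was not tested. Both P7 peaks counted for M1ap lay 81538 and 81258 bp past its main start, near starts annotated further into the gene. At Ythdc2 the arginine-mark summits gathered where H3K4me3 did, with 7 of the P14 lists holding a summit 955 to 1384 bp past the start.

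In Prmt1-dKO at P7 only H4R3me2s was profiled. It was found at 1 member, Stra8, in both lists, against 9.82% of coding genes (14.7% of the expressed), and in WT at 0 members, against 17.8% (28.8% of the expressed). In Prmt1-dKO the Stra8 summits lay 1250 and 1997 bp past the main start with fold enrichments of 4.22 and 3.01, and neither reached a q of 0.01. Dazl and Meioc each had a peak in 1 of 2 Prmt1-dKO lists and in 1 of 2 WT lists. Taf4b, M1ap and Ythdc2 had a peak in 1 of 2 WT lists and in neither Prmt1-dKO list, and Prss50 had none in either genotype. No test was made on 2 against 2 lists, and the grid of lists with a peak gives all counts.

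**Figure D4:**
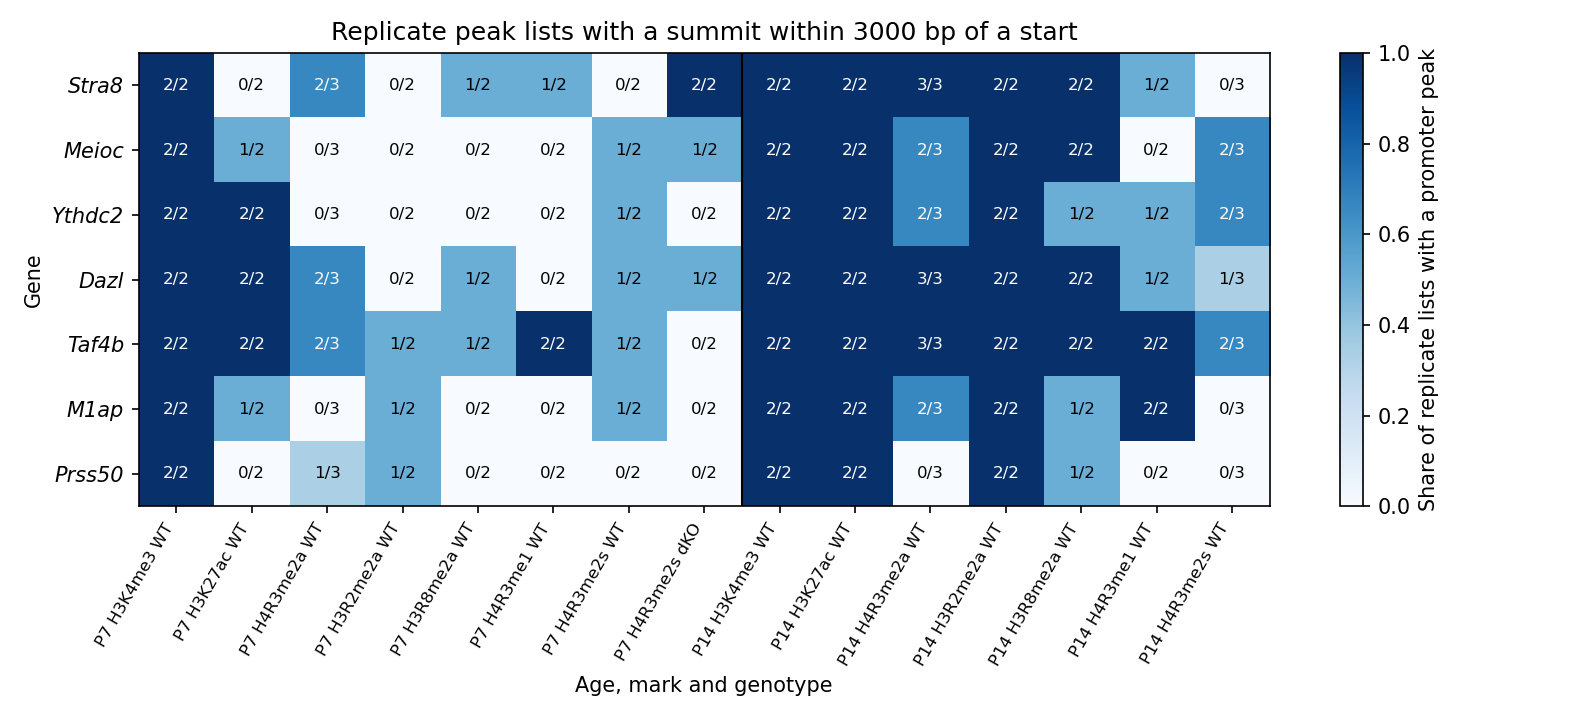
Number of replicate lists with a peak summit within 3000 bp of a start of each member (rows), for each age, mark and genotype (columns), with the shade giving the share of lists. H3K4me3 is present in every list at both ages, H3K27ac in every list at P14, and Prss50 has the fewest lists with a peak, 11 of 33 against 26 of 33 for Taf4b.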

How the data were processed

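RNA was measured in 10 libraries and histone marks in 33 peak lists. The deposited RNA tables hold expected counts and TPM per gene, which the authors made with STAR and RSEM on mm10 after fastp 0.23.2. Expected counts were rounded to whole numbers. Genes were filtered with filterByExpr (minimum count 10, minimum total 15), scaled by TMM and tested per assay in edgeR 4.0.16 (quasi-likelihood, Benjamini-Hochberg adjustment). A call needed an FDR below 0.05 and a 2-fold change. Log2 CPM used a prior count of 2, and the SE is the log2 fold change divided by the square root of F. Depth was 15610392 to 18547103 counts for sorted cells and 12396345 to 16598249 for whole testis. DESeq2 1.42.0, RLE scaling, no filter, a replicate block and leaving out each library were the alternatives.

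The deposited peak lists give the fold enrichment and the −log10 p and q that the authors obtained with MACS2 2.1.0, 1 list per library. Replicate lists were compared by the summit within 3000 bp of an annotated start (GENCODE vM21), with 1000 bp, a q of at most 0.01 and presence in any list as alternatives. Gene names came from GENCODE vM21, which matched 55141 of 55401 identifiers, and promoter sequences from RefSeq on GRCm38.p6, which was used for 5 of the 7 members.

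The members, the gene lists and the rules were chosen with earlier results of these data known. The members were named in full, and further genes were named where a list's test called them or where they were among the 3 genes most like Stra8 in profile. Sycp3, Dmc1, Ccna2, Rdh10, Pcgf6 and the axis genes of the closing section were named after their values were seen. Libraries sharing a replicate number are not paired.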

Additional observations from a re-analysis of the deposited data

Results flagged for a closer look

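M1ap had log2 fold changes of opposite sign in the 2 RNA assays. Its log2 fold change in Prmt1-dKO was -1.70 in sorted cells, where both Prmt1-dKO libraries lay below both WT libraries, and 0.40 in whole testis, where its CPM in the 3 Prmt1-dKO libraries exceeded the highest WT value. Stra8, at -0.00 and 0.04, Prss50 (-1.85 and 1.10), Taf4b (-0.85 and 0.06) and Dazl (0.22 and -0.03) also differed in sign, but their whole-testis groups overlapped. The whole-testis difference of M1ap was not called (edgeR FDR = 0.125), and in TPM the whole-testis groups overlapped. M1ap was selected on its sorted-cell value, and the difference between the assays was not tested.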

How the results depend on the processing

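In whole testis, 0 members were called higher. Without a filter on low counts it was 1, with DESeq2 1, and on leaving out each library 0 to 1. The 1 was Prss50, called without Prmt1-dKO replicate 3 (log2 fold change 1.43). Its log2 fold change ranged from 0.73 to 1.43 over the left-out libraries. No setting called a member lower. Leaving out 1 library turned the sign of the whole-testis log2 fold change of Stra8 (-0.17 to 0.22), Meioc (-0.26 to 0.0573), Ythdc2 (-0.34 to 0.0279), Dazl (-0.22 to 0.15) and Taf4b (-0.10 to 0.30). M1ap stayed between 0.21 and 0.49. Same-numbered libraries correlated at 0.082, -0.221 and -0.119 in whole testis and 0.018 in sorted cells, so the numbers do not pair them. With a replicate block 0 members were called, Prss50 had a log2 fold change of 0.99 (edgeR FDR = 0.0941), and over all genes 691 were called higher and 259 lower, against 881 and 294 without it. Without a filter these were 1777 and 375, and with DESeq2 1367 and 297. In sorted cells, 5 to 6 members were below 0 on leaving out each library, with Prss50 and M1ap selected on these values.

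Members marked depended on the peak rule. At a q of at most 0.01, counts at P7 were 0 for H4R3me2a, 0 for H4R3me1, 1 for H3K27ac and 0 for H4R3me2s in Prmt1-dKO, and at P14 3 for H3R2me2a, 2 for H4R3me2a, 1 for H4R3me2s, 2 for H3R8me2a and 0 for H4R3me1. With a peak in any list, they were at P7 3 for H3R2me2a, 3 for H3R8me2a, 2 for H4R3me1, 5 for H3K27ac, 5 for H4R3me2s in WT and 3 in Prmt1-dKO, and at P14 7 for H3R8me2a and 5 for H4R3me1. With a 1000 bp window H4R3me2s in Prmt1-dKO marked 0. Leaving out each list gave at P7 0 to 2 for H4R3me2a, 0 to 3 for H3R2me2a, 1 to 2 for H3R8me2a, 1 to 2 for H4R3me1, 3 to 5 for H3K27ac, 2 to 3 for H4R3me2s in WT and 2 to 2 in Prmt1-dKO, and at P14 3 to 5 for H4R3me2a, 5 to 6 for H3R8me2a, 2 to 5 for H4R3me1 and 1 to 1 for H4R3me2s, that list alone deciding where 1 remained. Causes were not tested.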

Other observations

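The pattern of M1ap was counted over all genes. Of the 14171 genes tested in both assays, 444 (3.13%) had every Prmt1-dKO library below every WT library in sorted cells and above every WT library in whole testis, in CPM. Of the 16 meiotic axis genes tested in both assays it was 6 (37.5%): Hormad1 and Hormad2 (HORMA-domain proteins of the chromosome axis), Prdm9 (the methyltransferase that places recombination hotspots), and Syce1, Sycp2 and Sycp3 (synaptonemal complex proteins). These counts rest on the CPM scale: in whole-testis TPM the genotypes of M1ap and of each of these axis genes except Sycp3 overlapped. They were made after the values were seen and no test was run on them.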
